A study of Drosophila melanogaster with 26 samples.

Results

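The fourth chromosome of Drosophila melanogaster is the smallest of its chromosomes. Most of it is packaged with heterochromatin proteins such as HP1a, and a protein of its own, POF, coats it along its length. Many of its genes are nevertheless expressed, so that active promoters lie between repeat-rich, silenced stretches. ACF1 is the signature subunit of the ISWI-containing remodelers ACF and CHRAC, and RSF-1 that of RSF. These complexes use ATP to move nucleosomes or to set their spacing, and both have been tied to the assembly of regular or silent chromatin in flies.

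Every ChIP-seq peak on chromosome 4 was collected from 26 peak lists, and peaks that shared at least 50 bp were merged. This gave 959 peaks in 332 regions, of 50336 peaks and 13525 merged regions on all sequences. Of the 332 regions, 312 were called in at least 1 of the 13 libraries made with an antibody against ACF1 or RSF-1. They lay between positions 60637 and 1323704 of chromosome 4 in genome build dm3, a span of 1.26 Mb or 1.05% of the combined span of the 6 main chromosome arms. Each peak was 200 bp wide, and the merged regions were 200 to 484 bp wide.

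The study asked where the remodelers sit in embryos aged 0 to 12 h, and used embryos that lack the protein as a control. The lists used here come from chromatin fixed in 3.7% formaldehyde, and in them this control covers the rabbit antibodies alone. The study also ran 3F1 on embryos without ACF1, fixed in less formaldehyde. Oregon-R embryos (WT) gave 7 ACF1 libraries, of which 3 came from the rat monoclonal antibody 3F1, 1 from the rabbit serum Rb1 and 3 from the rabbit serum Rb2, as well as 2 RSF-1 libraries from a rabbit serum, 3 pre-immune serum libraries and 7 inputs. Embryos with the deletion allele acf1-7 (acf1) gave 1 Rb1 library, 2 Rb2 libraries and 2 inputs, and embryos with the deletion allele rsf1-3602 (rsf-1) gave 1 RSF-1 library and 1 input. Both alleles are deletions left behind when a P element jumped out imprecisely. The embryos were collected unstaged as whole embryos, so that the lists mix all cell types and ages in that window.

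The chromatin came from 10 batches, each with its own input. The acf1 embryos make up batches 4 and 5 and the rsf-1 embryos batch 9, and 3F1 was used in batches 1 to 3 alone, so that batch cannot be told apart from genotype or from 3F1. Antibody lists held 1001 to 5636 peaks, pre-immune lists 1 to 621 and input lists 193 to 2359. The lists carry no score and no read number. The study's methods give the sequencing depth as one range for all samples, and the depth of each single library was not used here. A missing peak therefore says that none was called, and a list can grow with depth. No test for the absence of ACF1 or RSF-1 can be made from peak positions.

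Antibody peaks were denser on chromosome 4 than on the other 5 arms together in 12 of 13 libraries, and in these 12 it was the densest of the 6 arms. The 3F1 libraries had 61, 36 and 58 peaks there (replicates 1 to 3), which is 48.3, 28.5 and 45.9 peaks per Mb. The other 5 arms together had 19.3, 29.6 and 15.4 peaks per Mb in the same libraries. Replicate 2 was thus the exception, with a density on chromosome 4 that was 0.963 of that elsewhere, against 2.50 and 2.98 in replicates 1 and 3.

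Among the rabbit ACF1 sera in WT chromatin, Rb1 had 18 peaks on chromosome 4 and a density ratio of 2.31 to the other arms. Rb2 had 27, 55 and 123 peaks, with ratios of 1.13, 1.39 and 3.53 (replicates 1 to 3). The third Rb2 library held the most peaks on chromosome 4 of all 26 lists, 97.4 per Mb, although its list of 3755 peaks was shorter than that of replicate 2 with 4009.

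In acf1 chromatin, Rb1 had 117 peaks, the highest density ratio of the antibody libraries (7.36), and they made up 7.24% of its peaks on the arms (exact 95% binomial interval 6.03 to 8.62%). Rb2 had 79 and 67 peaks with ratios of 4.01 and 1.28 (replicates 1 and 2). RSF-1 had 81 and 63 peaks in WT chromatin, with ratios of 1.43 and 1.85, and 73 peaks in rsf-1 chromatin, with a ratio of 1.35. The 4 antibody lists from mutant chromatin thus held 67 to 117 peaks on chromosome 4, within the 18 to 123 of the 9 from WT chromatin.

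**Figure D1:**
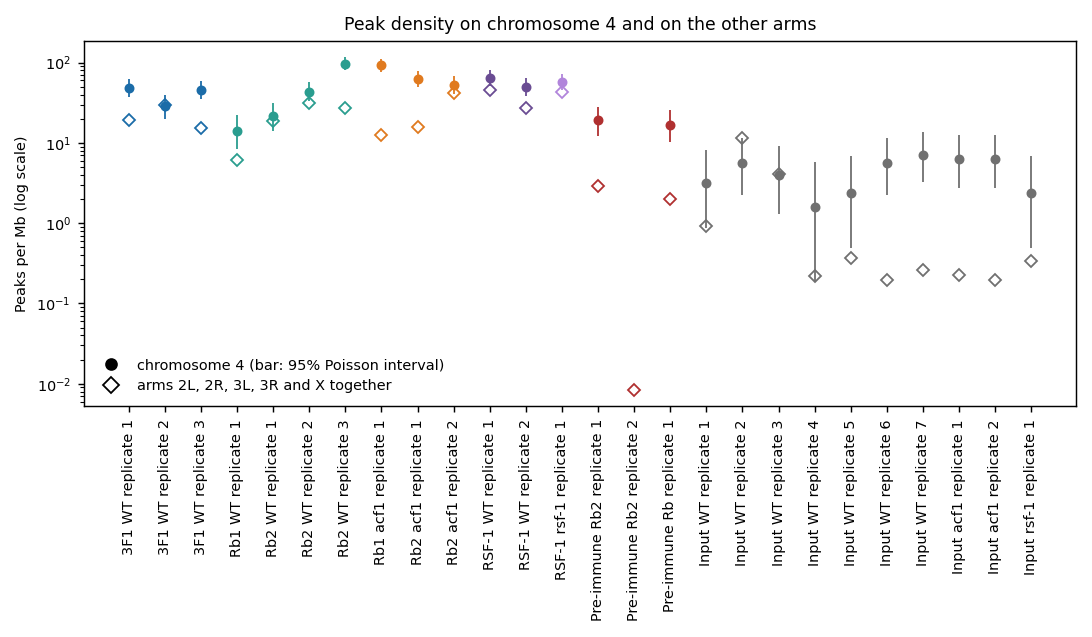
Peaks per Mb on a log scale for chromosome 4 (filled circles, with 95% Poisson intervals that cover counting error only) and for arms 2L, 2R, 3L, 3R and X together (open diamonds) in the 26 libraries, coloured by antibody and genotype. The circle lies above the diamond in 12 of 13 antibody libraries, and among these 13 the gap is widest for Rb2 WT replicate 3 and both acf1 libraries of batch 4. Pre-immune Rb2 replicate 2 had 0 peaks on chromosome 4 and shows no circle.

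With the antibody libraries of a batch averaged, the log2 density ratio of chromosome 4 to the other arms was 0.98 ± 0.79 (SD, n = 10 batches), a 1.97-fold higher density. It was above 0 in 9 of 10 batches and ranged from -0.03 to 2.45 (exact sign-flip permutation test over batches, two-sided, p = 0.00391, Benjamini-Hochberg adjusted p = 0.0176 over 9 tests). Batches 4 and 8, which hold Rb2 WT replicate 3 and both batch 4 acf1 libraries, had the highest values, 2.45 and 1.83. Without them the mean was 0.69 (exact p = 0.0156, n = 8 batches), a choice made after their values were seen.

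The genotype comparison used the rabbit sera, since no list here comes from 3F1 in acf1 chromatin. The numbers 18, 27, 55 and 123 in WT overlapped the numbers 67, 79 and 117 in acf1 chromatin. On the log2 scale with 1 added, WT minus acf1 was -0.98 for the number of peaks (two-sided exact permutation test over 4 and 3 libraries, p = 0.257, adjusted p = 0.367), and it was -0.81 for the density ratio (exact p = 0.286, adjusted p = 0.367). The smallest p this design allows is 0.0286. No loss of peaks on chromosome 4 in acf1 chromatin was detectable, and the difference pointed to more peaks there. It shrank to -0.35 for the number of peaks when Rb2 alone was compared. Single libraries moved the difference in density ratio, which was -0.25 without Rb1 acf1 and -1.51 without Rb2 acf1 replicate 2. With an acf1 library left out, too few arrangements of the libraries remain for any p to pass the threshold. The tests of these values therefore could not decide, and no conclusion is drawn from them.

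The density ratio did not separate the 2 factors or the kinds of ACF1 antibody in WT chromatin. RSF-1 minus ACF1 was -0.24 on the log2 scale (exact permutation test over 2 and 7 libraries, p = 0.639, adjusted p = 0.719), and it was -0.05 without RSF-1 WT replicate 1 and -0.43 without replicate 2. For 3F1 minus Rb1 or Rb2 it was 0.02 (exact permutation test over 3 and 4 libraries, p = 1), with a sign that turned on which library was left out.

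Input chromatin had few peaks on chromosome 4, and nearly all of them sat at the end with the highest coordinates. The WT inputs of batches 1, 2, 3, 6, 7, 8 and 10 had 4, 7, 5, 2, 3, 7 and 9 peaks, the acf1 inputs 8 each and the rsf-1 input 3. Of these 56 peaks, 53 (94.6%) lay in the last 50 kb of the span, which is 3.96% of its length. The same stretch held 63 of 858 antibody peaks (7.34%) and 16 of 45 pre-immune peaks (35.6%).

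Every antibody library had more peaks on chromosome 4 than the input of its batch. The difference in log2 of the number of peaks plus 1 was 3.39 ± 0.58 (SD, n = 10 batches), a 10.5-fold ratio, and it was above 0 in 10 of 10 batches (exact sign-flip test, two-sided, p = 0.00195, the smallest p that 10 batches can give; adjusted p = 0.0176).

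Relative to the other arms the order was the reverse. Input lists had so few peaks elsewhere that their density ratio was 27.3 to 32.8 in batches 4, 5, 8 and 10, 6.42 to 7.24 in batches 6, 7 and 9, and 3.39, 0.476 and 0.979 in batches 1, 2 and 3. The antibody ratio minus the input ratio was -11.9 (exact sign-flip test, p = 0.0117, adjusted p = 0.0264, below 0 in 8 of 10 batches). When the last 50 kb were left out, it turned to 1.42, with 3 input peaks in all left on the chromosome. That stretch was set apart after the input peaks had been seen there. Without it the input ratio was 0 in batches 1, 3 and 6 to 10, so any antibody peak put the difference above 0 there. No conclusion is drawn from this turn.

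The pre-immune sera gave 24 (Rb2 replicate 1), 0 (Rb2 replicate 2) and 21 (Rb) peaks on chromosome 4. The list of Rb2 replicate 2 held 1 peak in all. The other 2 had density ratios of 6.63 and 8.38, above those of 12 antibody libraries in the first case and of all 13 in the second. Antibody libraries had more peaks on chromosome 4 than pre-immune libraries by 2.87 on the log2 scale (two-sided exact permutation test over 13 and 3 libraries, p = 0.00714, adjusted p = 0.0214), and 1.35 without the list of 1 peak (exact p = 0.0476). Within batches 6 and 7, where the pre-immune chromatin belongs, the difference was 2.18. With labels exchanged within batches, the exact permutation p was 0.0833 with the batches in the labels. It was 0.167 with those in the supplement of the study, which swaps the batches of both Rb2 sera. So few exchanges are possible there that the smallest p is 0.0833. Neither assignment could thus pass the threshold, and no conclusion is drawn from these p-values.

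**Figure D2:**
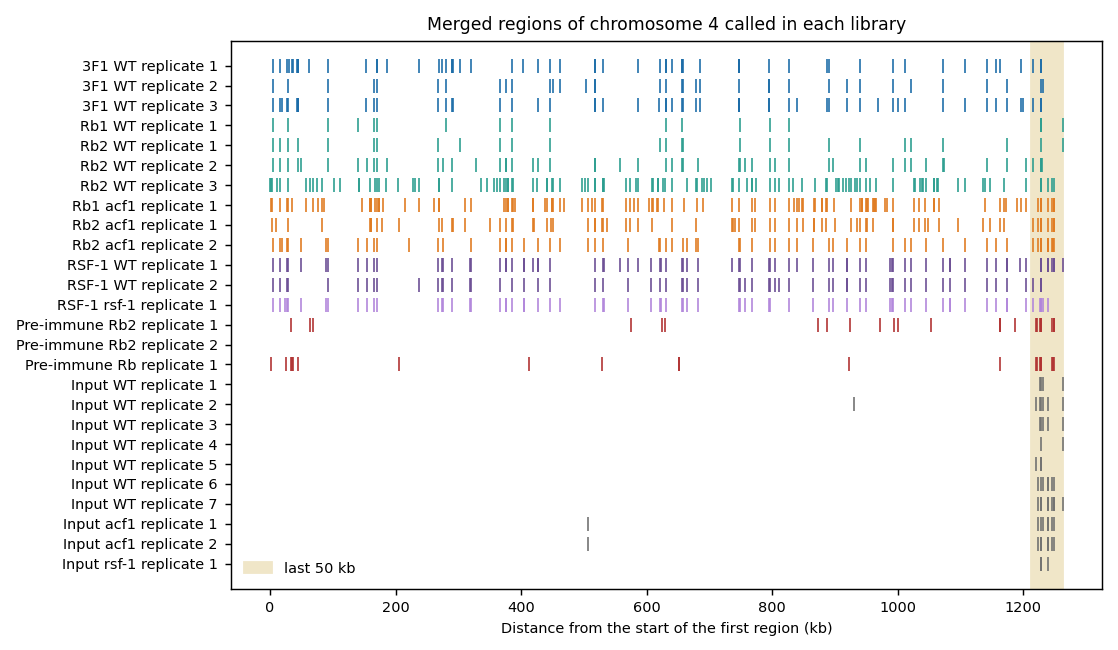
Each tick is a merged region of chromosome 4 called in that library, placed at its distance in kb from the start of the first region, with the last 50 kb shaded. Antibody libraries have ticks along the whole chromosome, while 53 of 56 input peaks lie in the shaded stretch. The rows of Rb2 WT replicate 3, Rb1 acf1 and Rb2 acf1 replicate 1 differ from the row pattern that the RSF-1 libraries share.

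Antibody regions on chromosome 4 were called in fewer libraries than those elsewhere. A region there was called in a median of 2 antibody libraries, against 3 on the other arms. Called in a single antibody library were 146 of 312 regions (46.8%), where the share over the 9741 antibody regions of all 6 arms was 33%. Much of this gap came with the 3 antibody libraries of batches 4 and 8, since over the other 10 libraries the share was 28.6% on chromosome 4 and 24.1% on the other arms. At least 10 antibody libraries called 14 regions (4.49%), against 10.4% over the 6 arms, and 3 regions (0.962%) were called in all 13, against 2.3%. The 14 became 7 when Rb2 WT replicate 1 or 2, Rb2 acf1 replicate 2 or any RSF-1 library was left out, 8 without Rb1 WT and 9 without 3F1 replicate 1 or 3, with 10 libraries still required of the 12 that remained. Regions are not replicates, and these shares are descriptions without a test.

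In density, the excess on chromosome 4 lay in the regions of low recurrence. Regions of a single library numbered 116 per Mb on chromosome 4 and 25.8 per Mb on the other arms, a ratio of 4.48. The ratio was 4.04 for regions of 2 to 3 libraries, 1.98 for 4 to 6, 1.38 for 7 to 9 and 1.32 for 10 to 13, where the densities were 11.1 and 8.41 per Mb. The regions that most antibody libraries called, in WT and mutant chromatin, were thus those whose density on chromosome 4 came closest to that elsewhere. Without the libraries of batches 4 and 8 the ratios were 2.14 for 1 library, 2.14 for 2 to 3, 1.66 for 4 to 6 and 1.31 for 7 to 10.

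**Figure D3:**
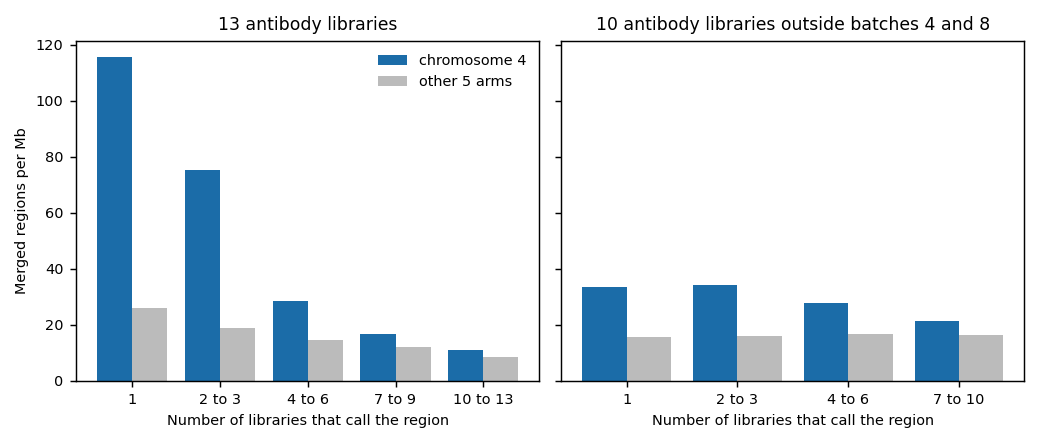
Merged regions per Mb on chromosome 4 (blue) and on the other 5 arms (grey), by the number of antibody libraries that call the region, for all 13 libraries (left) and for the 10 outside batches 4 and 8 (right). The bars differ most for regions of 1 library in the left panel (116 against 25.8 per Mb) and least for regions of 10 to 13 libraries (11.1 against 8.41).

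The 14 most recurrent regions were spread from one end of the span to the other. All 14 were called by all 3 RSF-1 libraries, the rsf-1 library included, and by Rb2 acf1 replicate 2, while Rb1 acf1 called 10 and Rb2 acf1 replicate 1 called 9 of them. The 14 were picked by calls in these same libraries, so the counts describe the selection. RSF-1 WT replicate 1, the rsf-1 library and Rb2 acf1 replicate 2 also had the longest antibody lists, with 5636, 5346 and 5184 peaks. In 12 of the 14 no input had a peak. The regions in all 13 antibody libraries were chr4:230679-230955, chr4:887590-887858 and chr4:1288212-1288677. The first 2 were free of input and pre-immune peaks, and the third, in the last 50 kb, was also called in 8 inputs and 2 pre-immune libraries.

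Next came chr4:1000527-1000805 with 12 libraries, where only Rb1 WT lacked a call. The regions chr4:578453-578852 and chr4:1052304-1052616 had 11 libraries and lacked Rb1 WT and Rb2 WT replicate 1, the shortest antibody lists on chromosome 4. The other region with 11 libraries, chr4:1288960-1289249, lies just beyond the one in the last 50 kb that all 13 called, and it was called in 6 inputs and 2 pre-immune libraries. Of the regions with 10 libraries, the first 3 by position are named. Here chr4:64323-64571 lacked Rb2 WT replicate 3 and both batch 4 acf1 libraries. A call was missing at chr4:76885-77228 in 3F1 replicate 2, Rb1 WT and Rb2 acf1 replicate 1, and at chr4:89274-89530 in the 3 3F1 libraries. In the first of these 3 the missing libraries were those of batches 4 and 8, and in the last those of 1 antibody. Each remaining region with 10 libraries lacked the same libraries as the first or as the last of these 3. No gene is given for any of these regions, since the gene table at hand belongs to another build.

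Rb2 WT replicate 3 (batch 8), Rb1 acf1 and Rb2 acf1 replicate 1 (both batch 4) shared peaks on chromosome 4 that the other antibody libraries lacked. The group was formed after these calls had been seen. They alone accounted for 165 of the 312 antibody regions (52.9%), against 19.7% over all 6 arms. Of the 165 regions, 113 were called in 1 of the 3 libraries, 37 in 2 and 15 in all 3. These libraries come from both genotypes and 2 batches of chromatin, made with Rb1 and Rb2.

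As a share of the shorter list of each pair, 45.3% to 62.0% of peaks on chromosome 4 were shared between 2 of these 3 libraries. Rb2 WT replicate 3 and Rb1 acf1 had 53 peaks in common, and Rb2 acf1 replicate 1 shared 42 peaks with the former and 49 with the latter. Between one of them and another antibody library the share was 12.3% to 34.5%. On the other arms it was 43.3% to 78.3% within the 3 libraries and 26.4% to 72.8% between them and the rest. Since the 3 libraries were grouped by their calls on chromosome 4, the values there describe the group and support nothing further. Among the other 10 libraries the median share was 74.1% on chromosome 4 and 82.7% on the other arms. The 3 RSF-1 libraries, WT and rsf-1 chromatin included, shared 91.8% to 93.7% of peaks on chromosome 4 and 91.6% to 93.3% on the other arms.

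Whether the ACF1 positions are also RSF-1 positions was compared library by library. This comparison was chosen after the data had been seen. The share of peaks with at least 50 bp in common with an RSF-1 WT peak was lower on chromosome 4 than on the other arms in 9 of 10 ACF1 libraries. It was 36.1% (22 of 61 peaks), 63.9% (23 of 36) and 44.8% (26 of 58) for 3F1 replicates 1 to 3, against 78.9%, 78.8% and 85.2% on the other arms. Rb2 WT replicate 3 had 17.9% (22 of 123) against 65.9%, Rb1 acf1 15.4% (18 of 117) against 38.9%, and Rb2 acf1 replicate 1 20.3% (16 of 79) against 67.2%. In these 6 libraries the share on chromosome 4 was lower by 14.9 points or more.

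In the remaining 4 libraries the shares differed by 10.2 points or less. Rb1 WT had 88.9% on chromosome 4 (16 of 18 peaks) against 94.0%, Rb2 WT replicates 1 and 2 had 85.2% and 85.5% against 95.4% and 88.5%, and Rb2 acf1 replicate 2 had 86.6% (58 of 67) against 85.2%. Over 8 batches the mean difference was -23.8 ± 19.8 points (SD; exact sign-flip test, two-sided, p = 0.0156, adjusted p = 0.0281, below 0 in 7 of 8 batches). The call was lost without RSF-1 WT replicate 1 (-13.2 points, exact p = 0.133) and without batches 4 and 8 (-17.9 points, exact p = 0.0625).

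**Figure D4:**
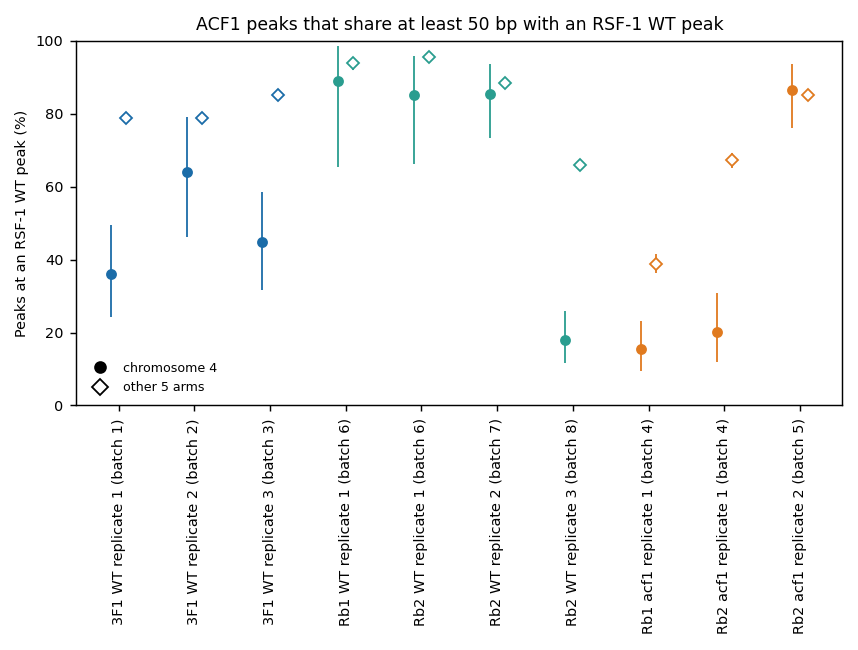
Percentage of the peaks of each ACF1 library that share at least 50 bp with a peak of either RSF-1 WT library, on chromosome 4 (circles) and on the other 5 arms (diamonds), with exact 95% binomial intervals that cover counting error only. The circle lies below the diamond in 9 of 10 libraries, by the most in Rb2 WT replicate 3 (17.9% against 65.9%).

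The 3F1 peaks that had no RSF-1 peak on chromosome 4 often lay beside one. Replicates 1 and 3 of 3F1 shared 44 regions, and 21 of them (47.7%) had no RSF-1 call, against 172 of 1622 (10.6%) on the other arms. Of the 21, 11 (52.4%) lay within 1000 bp of a region called in all 3 RSF-1 libraries, and on the other arms 58 of 172 (33.7%) did. RSF-1 peaks were themselves denser on chromosome 4, by ratios of 1.35 to 1.85 to the other arms. How far this density enters these shares and the distances below was not tested. For peaks of 3F1 replicates 1 and 3 with an RSF-1 peak centre within 1000 bp, the median distance between centres was 113 bp on chromosome 4 and 31 bp on the other arms. It was 42 and 28 bp for 3F1 replicate 2, and 18 and 17 bp between RSF-1 WT replicate 1 and the other RSF-1 libraries. For the 3 libraries of batches 4 and 8 against RSF-1 it was 85 and 30 bp.

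The clearest neighbours, chosen after their calls were seen, lay at chr4:856134-856385 and chr4:856435-856719. The first was called in all 3 3F1 libraries and no other antibody library. The second, 49 bp further on, was called in all 10 rabbit antibody libraries, ACF1 and RSF-1, WT and mutant, and in no 3F1 library. In the same way chr4:487149-487369 was called in 3F1 replicates 1 and 3, and chr4:487372-487588, 2 bp further on, in 5 libraries that included all 3 for RSF-1 and none for 3F1. At chr4:691083-691316 and chr4:691590-691819 the gap was 273 bp. Not all neighbours divided this way. Of the 11 regions of 3F1 replicates 1 and 3, 5 were also called in a rabbit antibody library, and of the 10 regions of all 3 RSF-1 libraries beside them, 3 were also called in a 3F1 library. So chr4:691837-692100, which lies 17 bp from chr4:691590-691819, was called in all 3 3F1 libraries and in Rb1 WT and Rb2 WT replicate 1, and chr4:855569-855847, on the other side of chr4:856134-856385, in 2 3F1 libraries and all 3 for RSF-1. The antibody species and the batches differ together, and their part in these offsets cannot be told apart.

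Regions that all 3 RSF-1 libraries called without any ACF1 library, or that all 3 3F1 libraries alone called, were few. Regions called in only some libraries of a single factor or antibody are not counted here. All 3 RSF-1 libraries called 57 regions, of which 45 were called in an ACF1 library from WT and 47 in Rb2 acf1 replicate 2. In 6 of 312 regions (1.92%, against 0.842% over the 6 arms) all 3 RSF-1 libraries and no ACF1 library had a peak. The first 5 were chr4:334483-334732, chr4:379252-379493, chr4:667117-667372, chr4:1047685-1047930 and chr4:1051463-1051699, none with an input or pre-immune call. Of the 59 regions called in both RSF-1 WT libraries, 2 were not called in the rsf-1 library. Shares over the 6 arms were not taken for this count or for the 45 and 47 above. As a share of the shorter list, RSF-1 WT replicate 2 and the rsf-1 library had 93.7% of peaks in common on chromosome 4. On the other arms they had 92.1% in common. The 3 3F1 libraries alone called 2 regions (0.641%, against 0.513%), chr4:744853-745145 and chr4:856134-856385.

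Peaks called in WT and not in acf1 chromatin made up a share of the regions near that of the 6 arms. Of the 262 regions called in a Rb1 or Rb2 library, 4 (1.53%, against 2.09% over the 6 arms) had a peak in 2 or more of the 4 WT lists and none in acf1 chromatin. The one with the most calls, chr4:717379-717625, had 9 libraries, including all 3 for 3F1 and the RSF-1 library from rsf-1 chromatin. The others were chr4:691837-692100 with 5 libraries, chr4:105080-105353 with 4, and chr4:1323419-1323704 with 3 and with peaks in 5 inputs.

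The opposite pattern was more frequent. At least 2 of the 3 acf1 libraries and no WT Rb1 or Rb2 library called 17 regions (6.49%, against 1.42%). Of the 17, 16 rested on both libraries of batch 4, which share their chromatin, so that batch and genotype cannot be told apart. The exception was chr4:87611-88044 with 7 antibody libraries, among them 3F1 replicates 1 and 3 and all 3 for RSF-1. The others named by the same rule were chr4:899474-899700, chr4:1284266-1284624, chr4:1310221-1310521 and chr4:219184-219405, with 3, 3, 3 and 2 antibody libraries. Of these, chr4:1284266-1284624 was called in all 3 acf1 libraries and in 4 inputs, those of batches 4, 5, 8 and 10, and chr4:1310221-1310521 in 1 input and 1 pre-immune library.

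The background libraries called chromosome 4 in different ways. Inputs called 14 of the 332 regions (4.22%), against 14% over the 11481 regions of all 6 arms, and 12 of the 14 lay in the last 50 kb. The WT inputs of batches 2 and 3 held 1384 and 481 peaks on the other arms, where the remaining inputs held 23 to 111. Peaks were denser on chromosome 4 than on the other arms in 8 of 10 inputs, so the pooled share does not describe each input. Pre-immune libraries called 36 regions (10.8%), against 4.85%, and 9 of these lay in the last 50 kb. Of the 36, 17 were called in no antibody library and no input.

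After chr4:1288212-1288677 with 8 inputs, the most input calls were at chr4:1299679-1299911, in 7 inputs and 3 antibody libraries (Rb2 acf1 replicate 2, RSF-1 WT replicate 1 and RSF-1 rsf-1). Then came chr4:1288960-1289249 with 6 inputs, and chr4:1291559-1291883 and chr4:1323419-1323704 with 5 each. The last 2 had 1 and 3 antibody libraries, and 3 of these 5 regions were thus called in 3 antibody libraries or fewer.

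The 2 pre-immune libraries with peaks on chromosome 4, both assigned to batch 7 by the labels, had 9 regions in common, of which 7 lay in the last 50 kb. By position the first 5 were chr4:93730-93937, chr4:1222885-1223249, chr4:1280792-1281043, chr4:1282896-1283097 and chr4:1287725-1287927. Only chr4:1222885-1223249 among these 5 had an antibody call, in 3F1 replicate 1. Outside the last 50 kb, a single pre-immune region was called in 4 or more antibody libraries.

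Antibody regions were found along the whole chromosome. In 10 equal bins of the span they numbered 32, 31, 32, 33, 37, 25, 24, 40, 26 and 32 in the order of their coordinates. Without those called in batches 4 and 8 alone, they numbered 18, 10, 17, 14, 17, 15, 10, 13, 8 and 25, with the most in the last bin. Pre-immune regions had 8 in the first bin and 12 in the last, and 0 to 6 in the bins between. Input regions had 12 in the last bin, 1 each in the fifth and the eighth, and none elsewhere. The last 50 kb held 16 antibody regions, 320 per Mb, against 244 per Mb on the rest of the chromosome.

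Neighbouring antibody regions were separated by a median of 2239 bp on chromosome 4, against 5902 to 7036 bp on the other arms. The longest stretch without one was 32866 bp, between positions 763183 and 796050, and on the other arms it was 139026 to 226875 bp. For regions called in at least 10 antibody libraries the median distance was 63099 bp on chromosome 4, within the 59024 to 96830 bp of the other arms. Antibody regions were narrower on chromosome 4, with a median of 209.5 bp against 230 to 238 bp, and a region called once is 200 bp wide by construction. The first region, chr4:60637-60836, was called in Rb2 WT replicate 3 alone. The widest, chr4:1275976-1276459 at 484 bp, was called in 7 antibody libraries, and the last, chr4:1323419-1323704, in 3 antibody libraries and 5 inputs.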

How the data were processed

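ChIP-seq of 26 libraries was analysed from the deposited peak lists. Each list gives, per peak, where it starts and where it ends. The authors mapped unique reads to dm3 with Bowtie 1.1.1 and ran HOMER with its defaults to find peaks. The study's supplement pairs each profile with an input, and its text does not say how that input entered the calls. Depth is stated as a single range, and reads per library were not used here, so that precision rests on the number of peaks.

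Peaks on arms 2L, 2R, 3L, 3R, X and 4 were merged at an overlap of at least 50 bp. Densities used the span from the first to the last peak of each arm over all lists. Density ratios were taken as log2 with 0.5 added to each number of peaks, and numbers of peaks as log2 with 1 added. Against inputs the ratios were linear with nothing added. Antibody libraries of a batch were averaged and tested by two-sided exact sign-flip permutation over batches, other groups by exact permutation over libraries, and p-values were Benjamini-Hochberg adjusted over 9 tests with a threshold of 0.05. Tests over libraries treat those of 1 batch as independent, and where the labels do not name separate collections, the p-values measure the spread between these libraries, which may be technical. Percentages of regions carry no test, and exact 95% intervals cover counting error only.

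The members and the lists of regions were chosen with earlier results of these data known. Named were the 10 regions in the most antibody libraries, up to 5 each of those called in inputs, in pre-immune libraries, in WT or acf1 alone, and in RSF-1 or 3F1 alone, and the first, last and widest region. Other choices tried were autosomal arms alone, regions in place of peaks, removal of input peaks, other scales, other pairings, overlaps of 1 or 150 bp, regions in at least 2 libraries, and each library left out. Genes, promoters and sequences were not analysed here, since the gene table belongs to another build and no genome was used. The labels put the pre-immune Rb2 replicate 1 in batch 7 and replicate 2 in batch 6.

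Software was matplotlib 3.10.9, scipy 1.17.1, numpy 2.4.6 and Python 3.11.15. A trial on simulated data (133900 peaks placed in 10300 regions) recovered all 10300. Each simulated region was put in every antibody library, far from the next and with small shifts, so that recovery was bound to succeed. The trial checks the merging code and says nothing on regions that lie close together.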

Additional observations from a re-analysis of the deposited data

Results flagged for a closer look

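Among the 7 ACF1 libraries from WT chromatin, Rb2 WT replicate 3 stood apart with 123 peaks on chromosome 4, where the next library had 61. Its gap to the nearest library was larger than Dixon's 95% critical value allows. In all, 12 such checks were run, and chance marks about 1 group in 20. The density ratio of the same library (3.53) lay near that of 3F1 replicate 3 (2.98) and was not marked. The difference between antibody and input libraries was also compared between WT and mutant batches, and it was not past the threshold for log2 numbers of peaks (-0.18, exact permutation p = 0.683, 7 and 3 batches) or for density ratios (11.2, exact p = 0.250).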

How the results depend on the processing

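The higher density on chromosome 4 kept its direction and its side of the threshold in 20 of 20 alternatives, with log2 ratios of 0.69 to 1.09 (on the linear scale, a mean excess of 1.29 over an equal density). The excess of antibody peaks over input peaks kept both in 28 of 28. The density ratio against input turned from -11.9 to 1.42 without the last 50 kb, a stretch set apart for its input peaks. It stayed below 0 and past the threshold in the other 29. The excess over pre-immune libraries was 2.18 within batches 6 and 7 alone with either assignment, where the few libraries allow no p past the threshold. It kept its call in the other alternatives. The comparison of 3F1 with Rb1 and Rb2 ranged from -0.29 to 0.52 as each library was left out, on both sides of 0. The share of ACF1 peaks at RSF-1 peaks ranged from -27.4 to -13.2 points as each library was left out, lost its call without RSF-1 WT replicate 1, and lost it at -17.9 points without batches 4 and 8. The 332 regions became 180 when at least 2 libraries were required and 179 without the libraries of batches 4 and 8. An overlap of at least 1 or 150 bp gave 135 and 220 regions of a single antibody library in place of 146. Regions with a pre-immune call fell to 21 without pre-immune Rb2 replicate 1.

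With Rb2 replicates 1 and 2 of WT and acf1 chromatin paired by number (replicate block), WT minus acf1 was -0.90 for log2 numbers of peaks (exact p = 0.500) and -0.85 for log2 density ratios (exact p = 1), and 2 pairs cannot pass the threshold. Without the block of batches, antibody minus input was -11.8 and 3.29 by exact permutation over libraries.

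The lengths of the arms in the reference were not run as an alternative, since the gene table gives none for this build. Without scores or reads, a region just short of the peak caller's threshold and one with no signal cannot be told apart.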
